A study of Homo sapiens with 12 samples.

Results

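HOX genes encode homeodomain transcription factors that give cells along the body axis their positional identity. In the human genome they lie in 4 clusters, HOXA on chromosome 7, HOXB on chromosome 17, HOXC on chromosome 12 and HOXD on chromosome 2, and a gene's number gives its place in the cluster and its paralogs in the others. Low-numbered genes respond to retinoic acid and act in anterior regions, high-numbered genes act in posterior ones, and the chromatin of whole clusters is held silent by Polycomb proteins or kept active by Trithorax proteins. Adult colon epithelium keeps many HOX genes active, beside the intestinal homeobox factor CDX2, and KDM3A is a demethylase that removes mono- and dimethyl marks from lysine 9 of histone H3, a mark of silent chromatin.

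The 39 HOX genes described here were chosen by symbol from a table of 26372 features, 11 in HOXA, 10 in HOXB, 9 in HOXC and 9 in HOXD. The values came from HCT116 cells, an established human colorectal carcinoma line, either wild type (WT) or with a KDM3A knockout (KO). Mock cells of each genotype were kept in normal medium, starved cells were moved to medium without serum, and refed cells received fetal bovine serum following 24 h of starvation. The time from serum to harvest, how the knockout was made and whether it is 1 clone are not given in the labels. There are 12 labelled samples, 2 to a group, but each of the 6 groups had 1 column of FPKM (a fragment count corrected for transcript length and library size), and its relation to the 2 samples is not stated. There was therefore no replicate spread, no test was possible, and "higher" and "lower" below describe single values. The family was picked for description with results of these same samples known, so its differences are given as a description and nothing rests on them as evidence. A gene was called measured where any of its 6 values was 1 FPKM or higher, which held for 25 HOX genes and 13456 of all features. Ratios are log2 ratios of (FPKM + 1), which understate the differences of low genes, and a gene was counted as 2-fold apart on that scale.

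Of the whole set of groups, WT mock stood apart. Of 16 endothelial marker genes, 14 were at 1 FPKM or more there and at least 2-fold above each other group. Their summed level over the list was 293 FPKM in WT mock and 52.1 to 94.2 FPKM in the other 5 groups. Of the measured HOX genes, HOXB2 alone was 2-fold above each other group in WT mock by the same measure, FPKM with no pseudocount. The epithelial markers EPCAM, CDH1, KRT8, KRT18 and KRT19 were above 1 FPKM in all 6 groups, while VIL1, LGALS4 and CEACAM5 were not in any, and of the fibroblast and leukocyte markers only COL1A1 reached 1 FPKM. WT starved and WT refed had a value of 0 for 4300 and 4301 features, WT mock for 6401 and the KO groups for 7075 to 7312. Read depth is unknown, so no counting error can be given and FPKM well under 1 cannot be ordered. The median log2 ratio of KO to WT over all measured features was 0.07 in mock, 0.19 in starved and 0.22 in refed culture (0.16 for the mean of the 3), and both rescalings tried move it to about 0.

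KDM3A itself gave 41.3, 17.8 and 19.8 FPKM in mock, starved and refed WT cells, and 3.15, 3.01 and 3.59 FPKM in KO cells of the same states. The KO libraries were below the WT libraries in each state (7.64%, 17.0% and 18.2% of WT), the direction that the genotype labels give. Which part of the gene was removed is not given.

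The clusters also hold microRNA genes. The mature microRNAs are shown because they lie among the genes whose values follow and because the miR-196 family is known to target HOX transcripts, HOXB8 among them. In the lines below capitals mark the seed, bases 2 to 8, from RefSeq (GRCh38.p14).
hsa-miR-196a-5p: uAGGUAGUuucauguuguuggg
hsa-miR-196b-5p: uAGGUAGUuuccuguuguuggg
hsa-miR-10a-5p: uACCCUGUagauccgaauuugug
The first is made from MIR196A1 in HOXB (chr17:48632532-48632553, minus strand) and from MIR196A2 in HOXC (chr12:53991762-53991783, plus strand), the next from MIR196B in HOXA (chr7:27169528-27169549, minus strand), and miR-10a-5p from MIR10A beside HOXB4 (chr17:48579904-48579926, minus strand). Both miR-196 forms share the seed AGGUAGU. Of the 8 microRNA genes listed in and beside the clusters, MIR196B alone had a value above 0, at 0, 7.60 and 7.95 FPKM in WT mock, starved and refed and 3.64, 13.7 and 5.88 FPKM in KO. MIR196B shares an exon with HOXA9 in GENCODE v29, and poly(A) libraries of this kind do not measure mature microRNAs.

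In WT cells the HOXB cluster was the largest contributor to HOX transcripts. Its members summed to 84.8, 118 and 90.8 FPKM in mock, starved and refed WT cells, which was 53.5%, 57.9% and 61.5% of all HOX FPKM. HOXA followed with 52.8, 65.1 and 41.2 FPKM, HOXC with 14.8, 17.5 and 13.1, and HOXD with 6.09, 3.12 and 2.60. In KO the HOXB sum was 37.6, 47.8 and 40.2 FPKM, or 44.4%, 40.6% and 44.3% of WT. HOXA summed to 54.0, 76.1 and 54.5 FPKM in KO and took the larger share, 48.9% to 52.6% against 33.0% to 36.1% for HOXB. HOXC was at 82.8% to 98.3% of WT and HOXD at 95.3%, 134% and 151%. As deposited, the sums put HOXB furthest below WT in each state. HOXC lay below WT by less, HOXA above it, and HOXD on both sides of it. The sums were not rescaled, and in the values as deposited the median ratio of KO to WT over all features lay above 0. The places of HOXA, HOXC and HOXD against WT may therefore depend on the scaling.

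**Figure D1:**
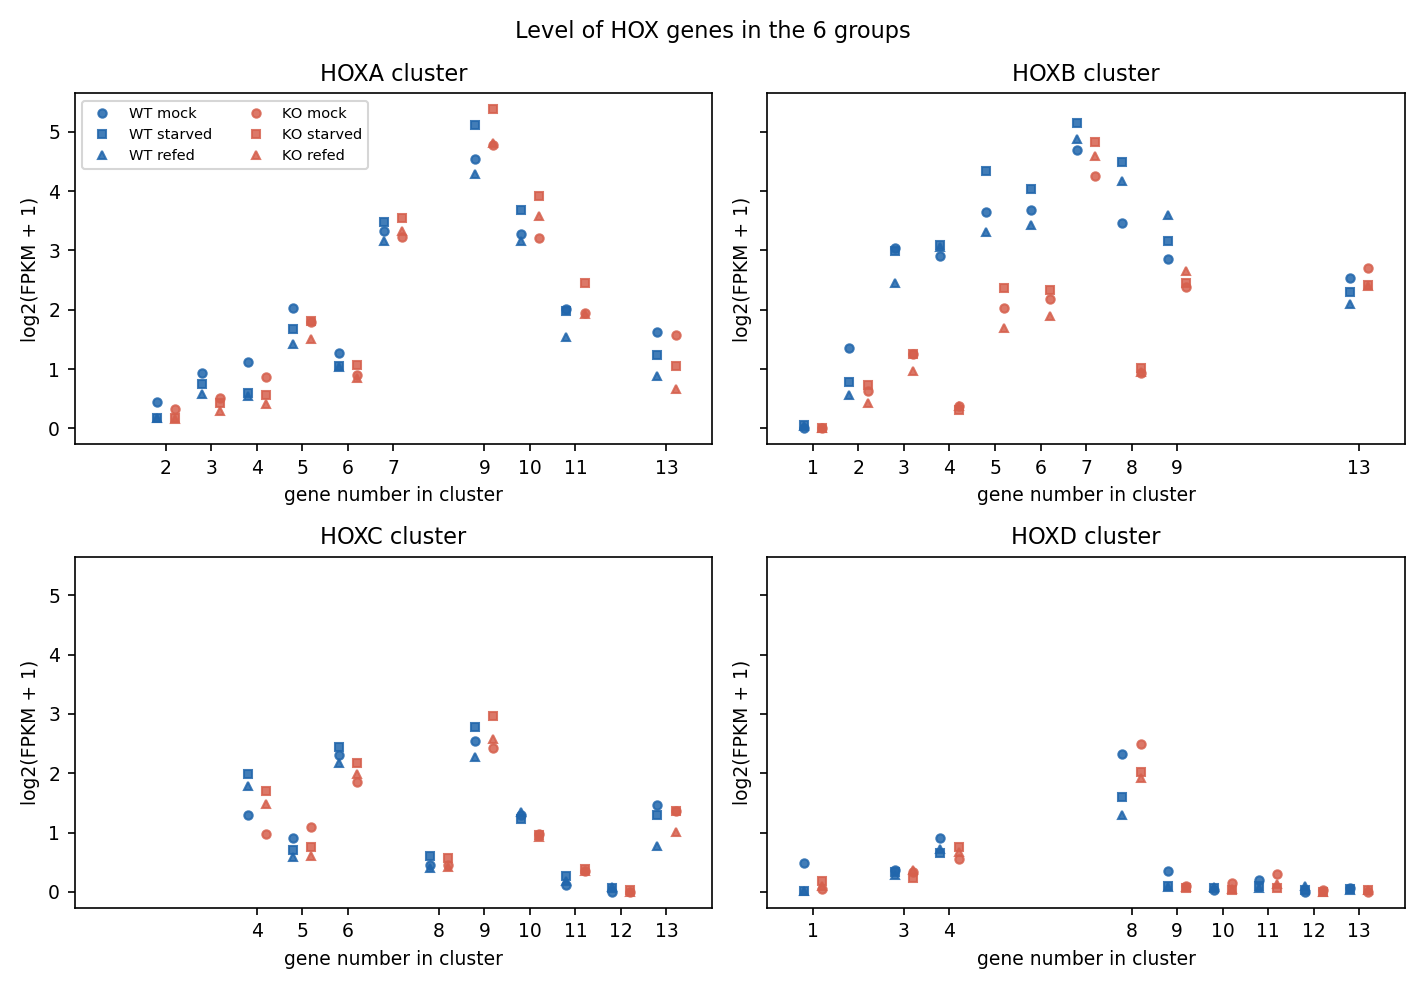
Level of the HOX genes as log2(FPKM + 1) on the vertical axis against the gene's number on the horizontal axis, 1 panel per cluster, with WT in blue and KO in red and mock, starved and refed culture as circles, squares and triangles. Each point is 1 deposited value. The red points of HOXB3, HOXB4, HOXB5, HOXB6 and HOXB8 lie well below the blue ones. HOXB9, HOXC6 and HOXC10 also have their red points below the blue ones, by less.

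HOXB3, HOXB4, HOXB5, HOXB6 and HOXB8 were each at least 2-fold lower in KO than in WT in all 3 states. That is 5 of 25 measured HOX genes (20.0%), against 0.602% of all measured features. HOXB4 is 1 of the 5 and passed the 1 FPKM filter through its WT values alone. In single states the same 5 genes were called, against a background of 3.22% in mock, 1.46% in starved and 1.51% in refed culture. No HOX gene was 2-fold higher in KO in any state, where the background was 2.27%, 2.59% and 3.41%, and 1.27% for all 3 states. The 5 genes made up 5 of the 9 measured in HOXB, and the counts in HOXA, HOXC and HOXD were 0 of 9, 0 of 6 and 0 of 1. With the mock state left out, which could not drop any of them, the same 5 genes were called, against 0.840% of all features. The summed level of the 8 epithelial markers was 2096 to 2457 FPKM in WT and 4672 to 5516 FPKM in KO. Most of that sum came from KRT8, KRT18 and KRT19. KRT8 alone ranged from 1002 to 1148 FPKM in WT and from 2316 to 2776 FPKM in KO. EPCAM differed less, at 145 to 176 FPKM in WT and 179 to 203 FPKM in KO. CDH1 also differed less, at 13.8 to 19.6 FPKM in WT and 21.7 to 29.4 FPKM in KO. VIL1, LGALS4 and CEACAM5 were under 1 FPKM in each group. The part of these markers in the HOX differences was not tested. In RNA from bulk cultures, fewer cells with a transcript and less transcript per cell cannot be told apart.

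Among the anterior members, HOXB1 was at most 0.0424 FPKM and HOXB2 was low. HOXB2 reached 1.56, 0.710 and 0.476 FPKM in WT, compared with 0.557, 0.657 and 0.343 FPKM in KO. It passed the 1 FPKM filter in WT mock alone, the group in which endothelial genes were also high, and their part in its value was not tested. HOXB3, a hindbrain and neck patterning factor in development, was at 7.28, 6.96 and 4.50 FPKM in WT mock, starved and refed cells and at 1.38, 1.38 and 0.954 FPKM in KO. The lowest WT value was above the highest KO value, and KO was at 19.0% to 21.2% of WT (mean log2 ratio -1.68, SD 0.16 over the 3 states, which are not replicates). HOXB4, known for expanding blood stem cells when overexpressed, reached 6.48, 7.49 and 7.32 FPKM in WT, compared with 0.296, 0.236 and 0.303 FPKM in KO. HOXB4 was thus under 1 FPKM in each KO group, at 4.57%, 3.15% and 4.14% of WT (mean log2 ratio -2.66, SD 0.13), which ranked 26 from the lowest of the 13456 features.

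Among the central members, HOXB5, which patterns the foregut and lung and acts in enteric neuron precursors, reached 11.6, 19.3 and 8.92 FPKM in WT, compared with 3.08, 4.16 and 2.24 FPKM in KO. HOXB6, active in lateral mesoderm and blood progenitors, had 11.8, 15.5 and 9.79 FPKM in WT and 3.55, 4.06 and 2.74 FPKM in KO. Both genes had separate WT and KO ranges and were highest in starved cells of each genotype, with mean log2 ratios of -1.74 (SD 0.20) and -1.58 (SD 0.12). HOXB7, often overexpressed in carcinomas, lies next to them and was also lower in KO in each state, but by much less. It reached 25.0, 34.3 and 28.3 FPKM in WT, compared with 18.1, 27.5 and 23.1 FPKM in KO, with overlapping ranges (mean log2 ratio -0.34, SD 0.08). HOXB8, a regulator of myeloid progenitors and of posterior patterning, had 9.99, 21.5 and 17.0 FPKM in WT and 0.912, 1.03 and 0.941 FPKM in KO. KO was at 9.13%, 4.76% and 5.54% of WT (mean log2 ratio -3.07, SD 0.49), the lowest log2 ratio of (FPKM + 1) among the measured HOX genes and rank 14 from the lowest of all measured features. This order depends on the pseudocount, since HOXB4 had -4.25 against -3.87 for HOXB8 with a pseudocount of 0.1. HOXB4 in KO was also at a smaller share of WT than HOXB8 in each state. The KO values of HOXB4 are well under 1 FPKM, where the error is unknown, so the order of these 2 genes is not firm.

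Among the posterior members, HOXB9, which acts with its paralogs in rib and mammary gland development, had 6.28, 7.94 and 11.1 FPKM in WT and 4.22, 4.46 and 5.32 FPKM in KO. The WT and KO ranges were apart, but the difference did not reach 2-fold on the (FPKM + 1) scale (mean log2 ratio -0.71, SD 0.23). HOXB13, a prostate and hindgut factor that lies at a distance from the rest of the cluster, reached 4.79, 3.92 and 3.29 FPKM in WT, compared with 5.51, 4.35 and 4.27 FPKM in KO (mean log2 ratio 0.20, SD 0.09). By position, KO held 13.0% to 15.0% of the WT sum for HOXB1 to HOXB4, 40.5% to 45.4% for HOXB5 to HOXB8, and 66.4% to 87.9% for HOXB9 and HOXB13. The middle sum rested largely on HOXB7, which gave 18.1, 27.5 and 23.1 of its 25.7, 36.7 and 29.1 FPKM in KO. HOXB7, between HOXB6 and HOXB8, was at 72.6% to 81.7% of WT. HOXB5, HOXB6 and HOXB8 were at 21.6% to 26.5%, 26.1% to 30.1% and 4.76% to 9.13% of WT. In the first sum, HOXB2 was at 35.6% to 92.5% of WT. The sums therefore do not show a steady change along the cluster, and the differences did not follow the gene order step by step.

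**Figure D2:**
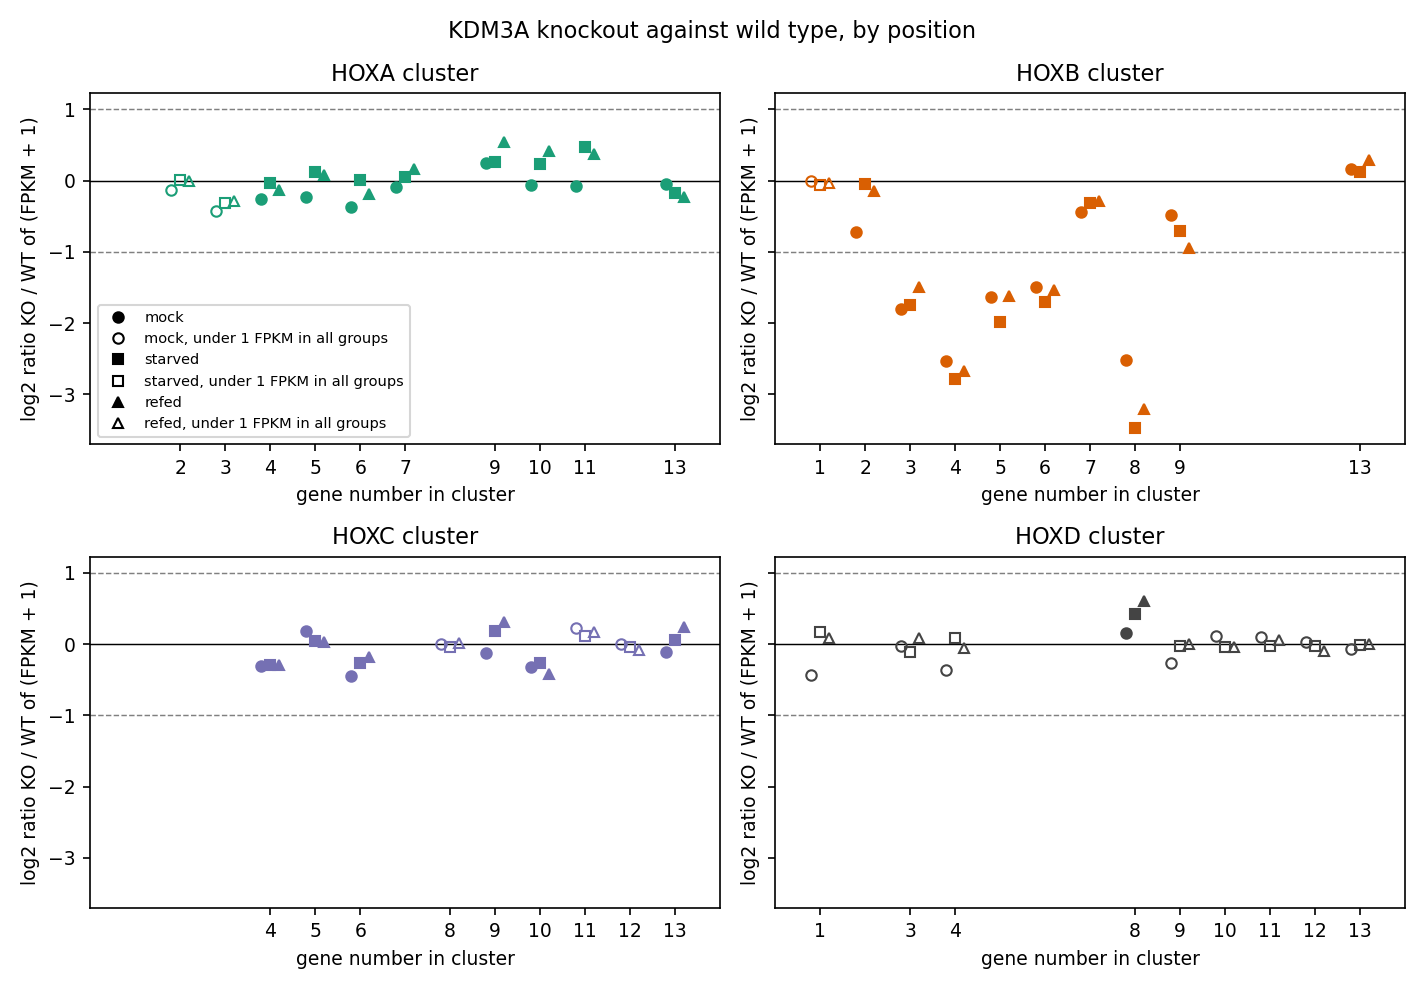
Log2 ratio of KO to WT of (FPKM + 1) on the vertical axis against gene number on the horizontal axis, 1 panel per cluster, with mock, starved and refed culture as circles, squares and triangles. Open symbols are genes under 1 FPKM in all 6 groups and dashed lines mark 2-fold. Filled points past the lower dashed line are HOXB3, HOXB4, HOXB5, HOXB6 and HOXB8, and the means of the genes measured in the other clusters lie between -0.34 and 0.40.

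The order of the HOX genes by level differed between the genotypes. By mean over the 3 WT states the first 5 were HOXB7 (29.2 FPKM), HOXA9 (24.8), HOXB8 (16.2), HOXB5 (13.3) and HOXB6 (12.4). By mean over the 3 KO states they were HOXA9 (31.4 FPKM), HOXB7 (22.9), HOXA10 (11.1), HOXA7 (9.38) and HOXC9 (5.40). HOXB8 took rank 3 in WT and rank 18 in KO. HOXB4 took rank 9 in WT, and its KO mean of 0.278 FPKM is too low to be ranked. In WT, HOXB7 and HOXA9 had overlapping ranges over the states, 25.0 to 34.3 and 18.5 to 33.8 FPKM, so their order is not firm.

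HOXB3, HOXB4, HOXB5, HOXB6 and HOXB8 each made up most of the summed WT level of their paralog group. In paralog group 4, HOXB4 made up 64.7% to 67.2% of the summed FPKM in WT and 6.46% to 11.6% in KO, and the sum of the 4 paralogs in KO was 25.6% to 31.5% of WT. In group 8, HOXB8 made up 69.5% to 90.4% of the sum in WT and 15.5% to 23.2% in KO, where HOXD8 became the highest of the paralogs. In group 3 the sum in KO was 24.0% to 28.1% of WT, in group 5 it was 33.2% to 42.9%, and in group 6 it was 40.9% to 45.4%. In group 7, led by HOXB7, it was 78.1% to 88.7%, and in group 2, led by HOXB2 at no more than 1.56 FPKM, it was 41.8% to 94.1%. In groups 9 and 13, led by HOXA9 and HOXB13, KO was at 105% to 112% and at 104% to 121% of WT. HOXB9 made up 16.7% to 33.3% of the WT sum of its group.

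**Figure D3:**
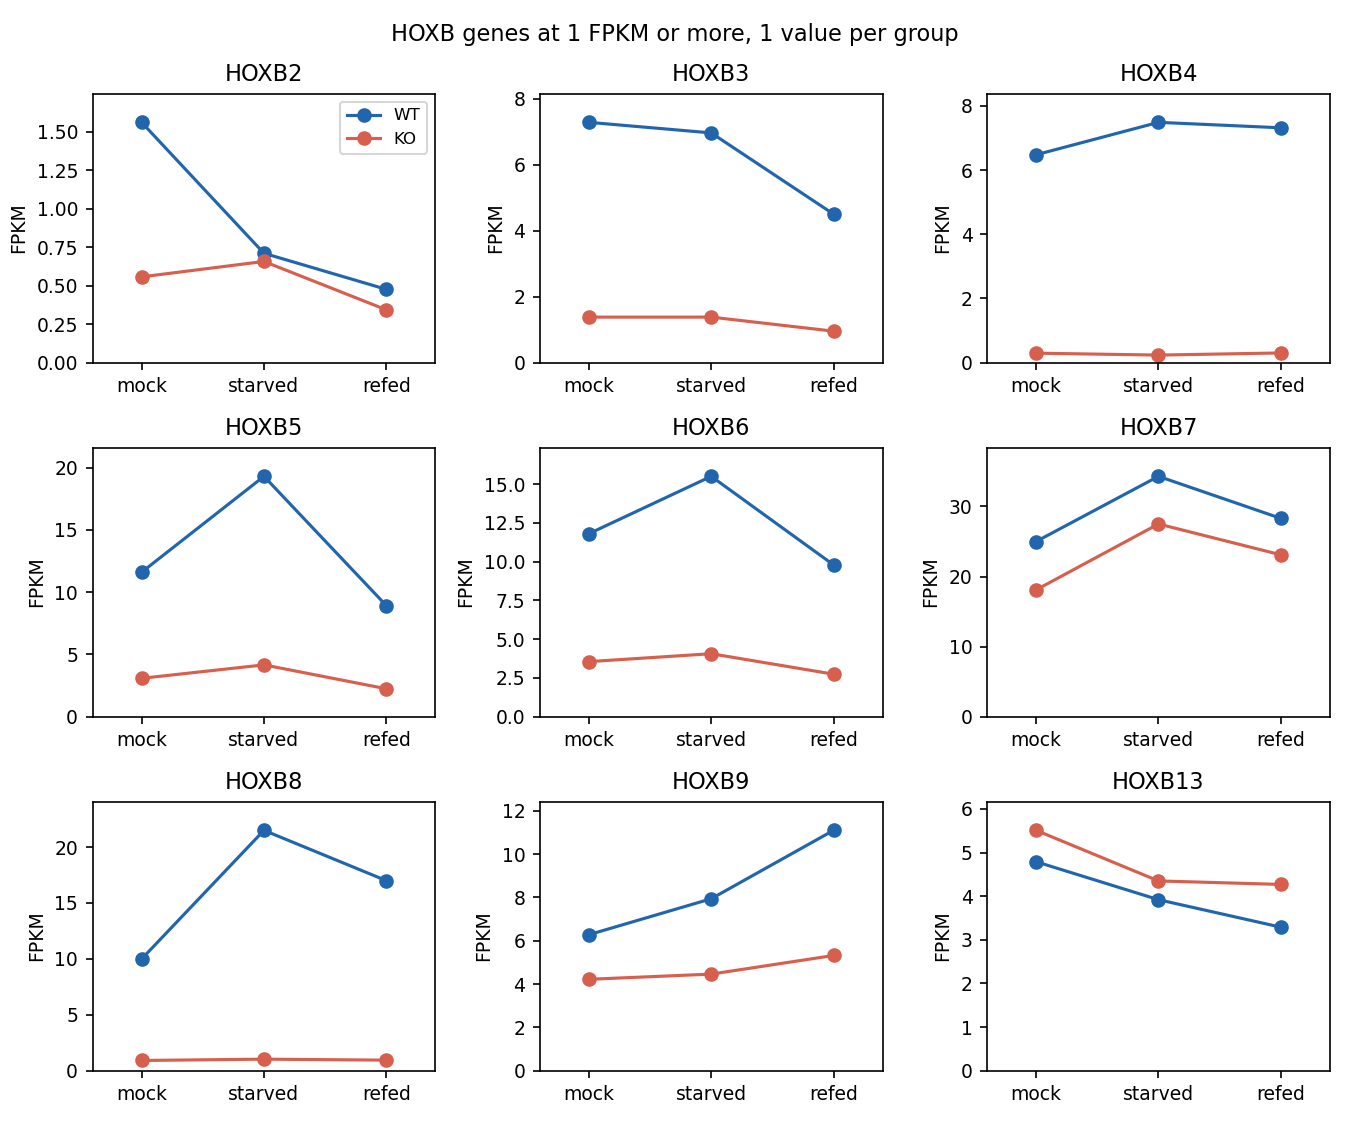
FPKM of the 9 HOXB genes measured at 1 FPKM or more, on a linear axis from 0, in mock, starved and refed culture, with WT in blue and KO in red and 1 deposited value per point. WT and KO lines are far apart for HOXB3, HOXB4, HOXB5, HOXB6 and HOXB8 and run side by side for HOXB7, and the KO line of HOXB13 lies above its WT line.

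In HOXA the highest genes were HOXA9, HOXA10 and HOXA7. HOXA9, a posterior factor known for its part in leukaemia, reached 22.2, 33.8 and 18.5 FPKM in WT, compared with 26.5, 40.6 and 27.2 FPKM in KO (mean log2 ratio 0.35, SD 0.16). HOXA10, which patterns the uterus and the lumbar spine, had 8.66, 11.8 and 7.97 FPKM in WT and 8.28, 14.1 and 11.0 FPKM in KO. HOXA7, a thoracic patterning factor, had 9.02, 10.2 and 7.98 FPKM in WT and 8.41, 10.7 and 9.07 FPKM in KO. In all 3 genes the WT and KO ranges overlapped and starved cells were highest in each genotype. HOXA5, needed for lung development, lay at 1.69 to 3.08 FPKM over the 6 groups and HOXA11, a limb and uterus factor, at 1.92 to 4.48. HOXA13, which shapes the hindgut and the digits, lay at 0.577 to 2.10 FPKM. HOXA4 lay at 0.336 to 1.17 FPKM and HOXA6 at 0.797 to 1.41. HOXA4 passed the filter in WT mock alone. The 9 measured HOXA genes had mean log2 ratios of KO to WT from -0.18 (HOXA6) to 0.35 (HOXA9), with a median of 0.04.

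In HOXC the highest genes were HOXC9, HOXC6 and HOXC4. HOXC9, which sets thoracic identity in spinal motor neurons, had 4.85, 5.84 and 3.83 FPKM in WT and 4.38, 6.83 and 5.00 FPKM in KO. HOXC6, overexpressed in several carcinomas, had 3.93, 4.43 and 3.51 FPKM in WT and 2.60, 3.50 and 2.97 FPKM in KO, with the highest KO value just below the lowest WT value. HOXC4 had 1.45, 2.99 and 2.45 FPKM in WT and 0.976, 2.24 and 1.80 FPKM in KO, with overlapping ranges. HOXC10, a lumbar and hindlimb factor, lay at 1.35 to 1.55 FPKM in WT and at 0.902 to 0.977 FPKM in KO. HOXC13, which acts in hair and nails, lay at 0.709 to 1.77 FPKM over the 6 groups and HOXC5 at 0.498 to 1.13. HOXC5 passed the filter in KO mock alone. The 6 mean log2 ratios ran from -0.34 (HOXC10) to 0.13 (HOXC9), with a median of -0.12.

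HOXD had 1 measured gene. HOXD8 had 4.01, 2.02 and 1.47 FPKM in WT and 4.61, 3.04 and 2.77 FPKM in KO (mean log2 ratio 0.40, SD 0.22), so the mock values were highest in each genotype and the ranges overlapped. Next in level were HOXD4, at 0.884, 0.584 and 0.655 FPKM in WT and 0.466, 0.691 and 0.588 FPKM in KO, and HOXD3, at 0.293, 0.264 and 0.213 FPKM in WT and 0.266, 0.172 and 0.286 FPKM in KO. In all, 14 HOX genes stayed under 1 FPKM. Their highest values were 0.904 FPKM for HOXA3, 0.884 for HOXD4, 0.516 for HOXC8, 0.403 for HOXD1, 0.368 for HOXA2, 0.302 for HOXC11, 0.293 for HOXD3, 0.284 for HOXD9, 0.226 for HOXD11, 0.110 for HOXD10, 0.0651 for HOXD12, 0.0572 for HOXC12, 0.0491 for HOXD13 and 0.0424 for HOXB1. HOXA3 and HOXD4 lay just below the 1 FPKM limit, and HOXC5 (1.13) and HOXA4 (1.17) just above it. HOXA3 had 0.904, 0.680 and 0.499 FPKM in WT and 0.426, 0.346 and 0.222 FPKM in KO, a difference at a level where the error is unknown.

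All 3 KO values lay below all 3 WT values in 8 of 25 measured HOX genes, HOXB3, HOXB4, HOXB5, HOXB6, HOXB8, HOXB9, HOXC6 and HOXC10, against 6.09% of all features. HOXB4 and HOXC10 passed the 1 FPKM filter through WT alone, the genotype in which they were higher, so the filter itself favours their place in this count. The opposite order, KO above WT, was seen in 0 HOX genes, against 25.5% of all features. Both shares of all features are of values as deposited, in which the median ratio of KO to WT lay above 0. After either rescaling, 9 HOX genes had KO below WT and 0 had KO above it, and the shares of all features were not computed. Outside HOXB, 9 of the 16 mean log2 ratios were above 0, with a median of 0.05 against 0.16 for all features and -1.58 for HOXB. After median-ratio rescaling 6 of the 16 were above 0 and after upper-quartile rescaling 4, with HOXA7, HOXC9 and HOXC13 changing sign in both and HOXA10 and HOXC5 in the latter only.

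**Figure D4:**
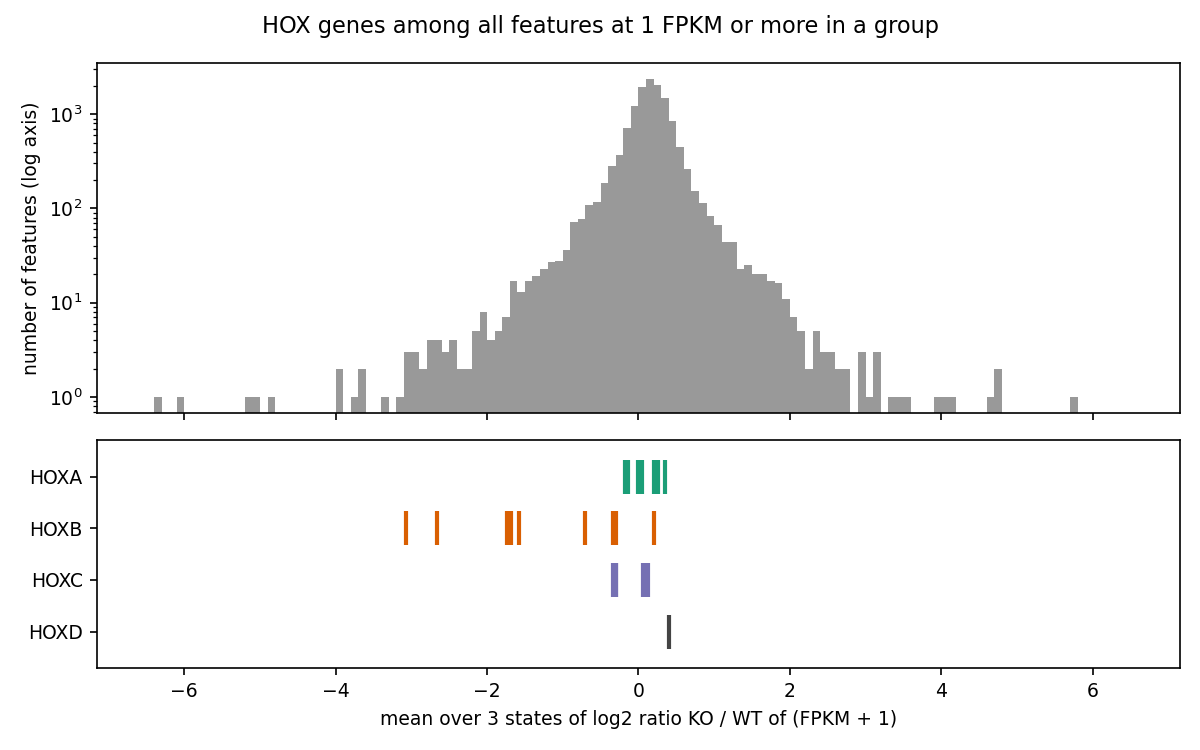
Upper panel, histogram of the mean over 3 states of the log2 ratio of KO to WT of (FPKM + 1) for 13456 measured features, with the number of features on a log axis. Lower panel, measured HOX genes on the same horizontal axis, 1 tick per gene and 1 row per cluster. HOXB spans -3.07 to 0.20, while the ticks of HOXA, HOXC and HOXD lie between -0.34 and 0.40, within the bulk of the histogram.

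Fewer HOX genes were 2-fold apart between serum states than between genotypes. Between starved and mock WT cells HOXB8 was 2-fold higher (9.99 and 21.5 FPKM), 1 of 25 against 1.03% of all features, and 0 were 2-fold lower against 3.91%. In KO the counts were 0 higher and 0 lower, against 0.951% and 1.18%. HOXB8 in KO went from 0.912 FPKM in mock to 1.03 FPKM in starved cells, a log2 ratio of 0.08 against 1.03 in WT; the difference between the genotypes was not tested. Between refed and starved WT cells HOXB5 was 2-fold lower (19.3 and 8.92 FPKM), 1 of 25 against 0.684%, and 0 were higher against 1.69%. In KO the counts were 0 and 0, against 1.98% higher and 0.446% lower, and HOXB5 was at 4.16 and 2.24 FPKM, a log2 ratio of -0.67 against -1.03 in WT.

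Of the 25 measured genes, 10 were highest in starved culture in both genotypes, against 9.27% of all features. They were HOXA7, HOXA9, HOXA10, HOXB5, HOXB6, HOXB7, HOXB8, HOXC4, HOXC6 and HOXC9. HOXC4 differed by log2 0.70 between starved and mock WT cells and by 0.71 in KO, HOXA9 by 0.58 and 0.59, HOXB7 by 0.45 and 0.57, and HOXA10 by 0.41 and 0.70. Another 7 were highest in mock culture in both genotypes, against 45.4% of all features, among them HOXA13, HOXB3, HOXB13 and HOXD8. HOXB3 is a near tie, with 1.38 FPKM in both mock and starved KO cells. HOXB9 was highest in refed culture in both, against 11.0% of all features. Most HOX genes were lower in refed than in starved cells, while the median log2 ratio over all features was -0.03 in WT and 0.01 in KO. The share of all features that were lower in refed cells was not computed, so the counts that follow have only these medians beside them. The 9 measured HOXA genes were each lower in WT and in KO, as deposited and after both rescalings, with medians of -0.32 and -0.29. In HOXB, 8 of 9 were lower in WT and 7 of 9 in KO (medians -0.27 and -0.24). In HOXC, 5 of 6 were lower in WT and 6 of 6 in KO (medians -0.24 and -0.19), and HOXD8 was lower in both. Both rescalings added HOXA11 and HOXB3 to the genes highest in starved culture, and kept the 10 named above.

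**Figure D5:**
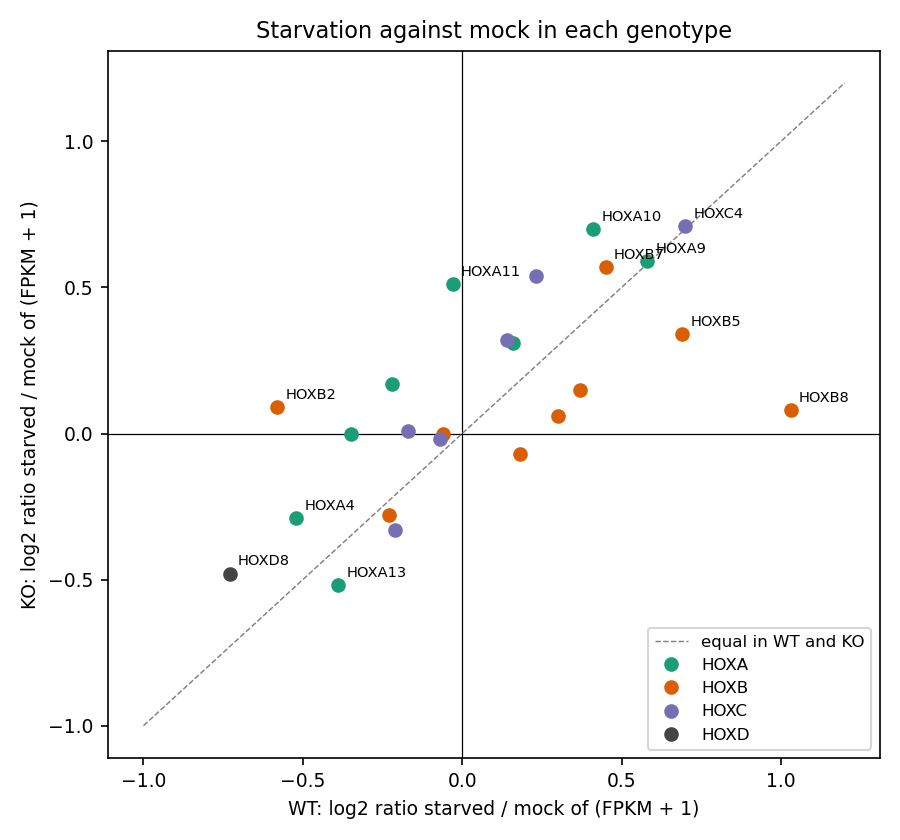
Log2 ratio of starved to mock of (FPKM + 1) in WT on the horizontal axis and in KO on the vertical axis for measured HOX genes, coloured by cluster, with a dashed line of equal ratios. HOXC4 and HOXA9 lie on the line, HOXB8 lies far to its right (1.03 in WT and 0.08 in KO), and HOXA11 (-0.03 and 0.51) and HOXB2 (-0.58 and 0.09) lie above it.

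The sequences just before the start of 4 of the 10 genes that were highest in starved culture in both genotypes are shown, since these members shared a pattern over the states. No windows of HOXB5, HOXB6, HOXB7, HOXB8, HOXC6 and HOXC9 were at hand, so the 4 shown are those that were available. Each is the 120 bases before a RefSeq start (GRCh38.p14) on the gene's strand, and capitals mark the letters CCAAT or its reverse complement, GGGCGG or its reverse complement, and TTTATNG or its reverse complement, the letters of the CCAAT box, the GC box and a CDX site. HOXA10 has 2 windows in the table, and the one that holds CCAAT is shown.
HOXA7: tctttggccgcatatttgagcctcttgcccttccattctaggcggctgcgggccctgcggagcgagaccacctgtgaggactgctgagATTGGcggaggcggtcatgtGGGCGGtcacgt
HOXA9: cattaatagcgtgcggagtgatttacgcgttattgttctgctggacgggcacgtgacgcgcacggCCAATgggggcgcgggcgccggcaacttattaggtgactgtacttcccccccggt
HOXA10: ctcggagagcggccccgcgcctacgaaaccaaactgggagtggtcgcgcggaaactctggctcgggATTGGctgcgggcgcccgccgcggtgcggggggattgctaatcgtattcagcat
HOXC4: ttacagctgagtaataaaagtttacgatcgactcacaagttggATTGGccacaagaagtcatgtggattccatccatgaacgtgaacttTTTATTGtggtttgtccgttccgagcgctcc
They lie at chr7:27156676-27156795, chr7:27165538-27165657 and chr7:27174321-27174440 on the minus strand and at chr12:54016768-54016887 on the plus strand. The table held 27 windows of 300 bases (250 before to 50 after a start) for 20 HOX genes among 35116 windows in all. HOXB1 was the only HOXB gene among them, and several of the windows belong to HOXA3. CCAAT on either strand was in 18 of the 27 (66.7%) and in 34.6% of all windows, TTTATNG in 7 (25.9%) and 9.73%, and TGATTNAT, a PBX-HOX site, in 2 (7.41%) and 2.82%. TATAAA was in 5 (18.5%) and 11.5%, and GGGCGG in 13 (48.1%) and 45.0%. The HOXC4 window is also the window of HOXC5, yet HOXC4 was highest in starved and HOXC5 in mock culture of each genotype. These matches describe letters and not bound sites.

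Reads of neighbouring HOX transcripts can be hard to assign. In GENCODE v29, 19 of the 25 measured HOX genes share exon sequence with another gene, 16 of them with a gene of the opposite strand, and whether the authors counted by strand is not stated. HOXB3 shares exons with HOXB4 and HOXB6 on its own strand and with HOXB-AS1 and HOXB-AS3 on the other, and HOXB5 and HOXB6 share exons with HOXB-AS3. For HOXB3, HOXB4, HOXB5 and HOXB6, the sense and overlapping transcripts therefore cannot be told apart from these tables. HOXB7, HOXB8, HOXB9 and HOXB13 share none. In HOXC, HOXC4, HOXC5 and HOXC6 share exons with each other.

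Among the antisense and intergenic RNAs of the clusters, 18 of the 27 listed names were in the table and 6 were measured. HOXB-AS3, which crosses HOXB3, HOXB5 and HOXB6, had 6.36, 10.4 and 6.67 FPKM in WT and 2.61, 3.09 and 1.93 FPKM in KO. It was the 1 of 6 that was 2-fold lower in all 3 states, against 0.602% of all features (mean log2 ratio -1.30, SD 0.23). Like HOXB5 and HOXB6 it was highest in starved cells of both genotypes. HOXA10-AS had 2.67, 7.34 and 4.69 FPKM in WT and 1.94, 4.54 and 4.47 FPKM in KO, with mean log2 -0.32. HOXD-AS2 ranged from 1.91 to 2.39 FPKM in WT and from 2.48 to 3.09 FPKM in KO, and HOXC-AS1 had mean log2 0.26. HOTAIR and HOTTIP, long noncoding RNAs of HOXC and HOXA, were under 0.5 FPKM in each group.

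Of 20 measured genes beside the clusters, 0 were 2-fold apart between KO and WT in any state. Of all features 2.27% to 3.41% were 2-fold higher and 1.46% to 3.22% lower in a single state, and a count of 0 among 20 genes is near those shares. SKAP1, a T-cell adaptor gene next to HOXB1, had 5.40, 5.68 and 5.10 FPKM in WT and 2.88, 2.94 and 2.82 FPKM in KO, or 51.9% to 55.3% of WT (mean log2 ratio -0.72, SD 0.04). TTLL6, beyond HOXB13 at the other end, ranged from 1.02 to 1.09 FPKM in WT and from 0.590 to 0.846 FPKM in KO. PRAC1 and PRAC2, which lie between HOXB9 and HOXB13, were under 0.5 FPKM. Beyond SKAP1, SNX11 had mean log2 0.05, CBX1 -0.04 and NFE2L1 -0.28. Beside HOXA, SNX10 had mean log2 -0.40, SKAP2 0.16 and HIBADH 0.38, beside HOXC the values were 0.35 for SMUG1 and 0.07 for CALCOCO1, and beside HOXD 0.34 for MTX2 and 0.21 for KIAA1715. Of the 20 neighbours, SKAP1 was the furthest from equal levels. EVX1 and EVX2, homeobox genes at the ends of HOXA and HOXD, were under 0.5 FPKM.

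HOX proteins bind DNA with PBX and MEIS partners. Of these cofactor genes, MEIS3 had a mean log2 ratio of KO to WT of 0.27, PBX3 of 0.22 and MEIS2 of -0.16, and all 3 were measured.

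Of 15 measured upstream factors, CYP26A1 was 2-fold higher in KO in all 3 states, against 1.27% of all features. CYP26A1 passed the 1 FPKM filter through KO alone, the genotype in which it was higher, so the filter itself favours its place in this count. None of the 15 was 2-fold lower in any state, a count near the 1.46% to 3.22% of all features. CYP26A1, which degrades retinoic acid and is induced by it, had 0.295, 0.216 and 0.212 FPKM in WT and 2.80, 2.21 and 2.30 FPKM in KO (mean log2 ratio 1.47, SD 0.08). The retinoic acid receptor RARG ranged from 13.5 to 16.6 FPKM in WT and from 22.8 to 29.4 in KO, and ALDH1A3, which makes retinoic acid, at 84.5 to 98.7 and 144 to 177. CYP26B1, a relative of CYP26A1, ranged from 6.22 to 7.52 FPKM in WT and from 2.72 to 4.17 in KO. CDX2 had 7.51, 8.60 and 6.51 FPKM in WT and 7.10, 9.24 and 7.52 FPKM in KO, with overlapping ranges. Genes of retinoic acid handling thus differed in both directions, while the CDX2 values of the genotypes interleaved.

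Of 30 measured Polycomb genes, 0 were 2-fold apart between KO and WT in any state, near the 2.27% to 3.41% of all features that were higher and the 1.46% to 3.22% that were lower in a single state. Their median of the mean log2 ratio was 0.15, against 0.16 for all features. EZH2, the methyltransferase of lysine 27 of histone H3, had 25.4, 20.7 and 21.0 FPKM in WT and 22.6, 26.1 and 25.8 FPKM in KO. PHC2, a subunit of Polycomb repressive complex 1, had 65.3, 54.3 and 46.6 FPKM in WT and 35.0, 28.0 and 26.4 FPKM in KO (mean log2 ratio -0.87, SD 0.07), the furthest from equal. The next were BMI1 at 0.46, JARID2 at 0.44 and CBX7 at 0.39. Of 17 measured Trithorax and lysine 27 demethylase genes 0 were 2-fold apart, which is near the same shares, with a median of 0.10. DOT1L had mean log2 0.41, DPY30 0.30, KDM6B -0.24 and KDM6A 0.21.

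Homeobox genes outside the clusters differed in the opposite direction from HOXB in some cases. Of 11 measured members of the same homeobox class, 2 were 2-fold higher in KO in all 3 states, against 1.27% of all features, and 0 were lower in all 3, against 0.602%. DLX2 had 0.786, 1.44 and 2.01 FPKM in WT and 6.87, 7.89 and 21.7 FPKM in KO (mean log2 ratio 2.31, SD 0.55). MSX2 had 4.07, 2.16 and 2.70 FPKM in WT and 15.3, 17.7 and 18.5 FPKM in KO (mean log2 ratio 2.22, SD 0.47). MSX1, its paralog, ranged from 38.1 to 46.3 FPKM in WT and from 19.9 to 31.3 in KO (-0.84), and DLX4 had mean log2 0.74.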

How the data were processed

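RNA of HCT116 cells was enriched for poly(A) and sequenced, per the labels' protocols. Reads were processed with cutadapt, FastQC and TopHat2 against hg19, per the submitters' processing notes; the program behind the FPKM and its annotation are not given in the sources used here. The deposited unit is FPKM, 1 column per group, made by the authors and used as deposited. Python 3.11.15, numpy 2.4.6, pandas 2.3.3 and matplotlib 3.10.9 gave log2 ratios with a pseudocount of 1 FPKM, checked on simulated data. Low values showed no common step per read (the fullest bin of ratios held 4.41% to 10.8% of shared values under 0.1 FPKM), so whole reads were not recovered. Neighbours came from RefSeq and exon overlaps from GENCODE v29, both of a later build, by name only. KDM3A, the measured HOX genes and, per list, up to 4 genes with the largest mean ratio, CDX2, EZH2 and genes next to a cluster were named. BMI1, JARID2, CBX7 and the other list members follow that rule; HOTAIR, HOTTIP, PRAC1 and PRAC2 were added by hand. The members and lists were chosen with earlier results of these data known. Alternatives were other pseudocounts, filters, folds, 2 rescalings and leaving out mock culture. Some members and list genes are counted but not reported here by name or value.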

Additional observations from a re-analysis of the deposited data

How the results depend on the processing

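HOXB3, HOXB4, HOXB5, HOXB6 and HOXB8 were called lower in KO in all states compared under each of the 7 alternatives tried. They were a pseudocount of 0.1, no filter on low values, a 5 FPKM filter and 1.5-fold in place of 2-fold. The others were median-ratio rescaling, upper-quartile rescaling and leaving out mock culture. The smaller pseudocount, the missing filter, the lower fold and the left-out mock culture only loosen the rule and could not lose a gene. The highest values of the 5 genes were 7.28 to 21.5 FPKM, so the 5 FPKM filter could not lose one either. Both rescalings divide KO values by larger factors than WT values. The median-ratio factors were 1.049 to 1.102 for KO and 0.876 to 1.037 for WT. Both rescalings lowered the mean ratios of all 5 genes. The alternatives therefore say little about how firm these calls are. With a pseudocount of 0.1 the mean log2 ratios of these HOXB genes, in the order named, were -2.23, -4.25, -2.01, -1.81 and -3.87. At 1.5-fold, 1 HOX gene was higher in KO refed than in WT refed, 4 were higher and 1 lower in WT starved than in WT mock, 3 were higher in KO starved than in KO mock, 3 were lower in WT refed than in WT starved and 1 was lower in KO refed than in KO starved. With a pseudocount of 0.1, 3 were 2-fold lower in WT starved than in WT mock and 1 was higher in KO starved than in KO mock. For these single comparisons the shares of all features under the changed settings were not computed, so the counts have no background. Without mock culture and as deposited, the KO and WT values were apart in 13 genes, 10 with KO below (11.1% of all features) and 3 above (63.0%). At 5 FPKM, HOXA had 3, HOXC 1 and HOXD 0 genes above the minimum, and HOXD had 2 at 0.5 FPKM. No mean ratio of a gene 2-fold apart changed sign. No paired analysis was possible because each group has 1 column, which carries no replicate number; for the same reason no sample could be left out. Read depth is unknown, which limits what can be said of genes under 1 FPKM.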
